A study of Homo sapiens with 8 samples.

Results

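Clade B serpins and the plasminogen activators, 10 genes in all, were followed through the RNA of H1975 and HCC44 cells, human lung cancer lines whose genotype is labelled WT. Cells received the solvent DMSO, or ACBI1, a compound that links SMARCA2, SMARCA4 and PBRM1, bromodomain proteins of the SWI/SNF chromatin remodelling complexes, to the VHL ubiquitin ligase so that they are degraded. The labels give 1 mM ACBI1 for 96 hours, a concentration far above those usual for degraders, so its unit is uncertain. The 4 groups were H1975 with DMSO, H1975 with ACBI1, HCC44 with DMSO and HCC44 with ACBI1. Each held 2 replicates. Nothing says that replicates came from separate cultures, so p-values measure only the spread between these libraries, which may be technical. Each group is a culture of a single established line.

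The members were the 10 of 61228 genes in the count tables with the symbols SERPINB1, SERPINB2, SERPINB5, SERPINB6, SERPINB7, SERPINB8, SERPINB9, PLAU, PLAUR and PLAT. The group was chosen by the levels of SERPINB7 in these libraries, which were nearly lost with ACBI1 in HCC44. SERPINB7 is therefore described without a test, and counts of called members are over the other 9. All 10 members passed the filter on low counts.

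Serpins are protease inhibitors that offer a reactive loop as bait, and the protease that cleaves the loop is trapped in a covalent complex. Clade B members lack a classical signal peptide and mostly stay inside the cell, where they hold serine or cysteine proteases in check, although some are also found outside. The plasminogen activators are serine proteases that turn plasminogen into plasmin at the cell surface. Urokinase (PLAU) does this bound to its receptor (PLAUR), tissue-type activator (PLAT) works with cofactors such as fibrin, and SERPINB2 (plasminogen activator inhibitor type 2) can inhibit both.

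The 7 clade B members lie in 2 clusters (positions from GENCODE release 29 on hg38). SERPINB5 (chr18:63476761-63505085), SERPINB7 (chr18:63752935-63805376), SERPINB2 (chr18:63871692-63903890) and SERPINB8 (chr18:63969925-64019779) are on the plus strand of chromosome 18, in a cluster of 10 clade B genes over 543 kb. SERPINB1 (chr6:2832332-2842006), SERPINB9 (chr6:2887266-2903280) and SERPINB6 (chr6:2948159-2972165) are on the minus strand of chromosome 6, over 140 kb. PLAU lies at chr10:73909177-73917497 on the plus strand, PLAUR at chr19:43646095-43670547 and PLAT at chr8:42175233-42207724, both on the minus strand.

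The 250 bases before the RefSeq starts (GRCh38.p14) of 9 members, all but PLAT, were searched on both strands. The letters sought were those of AP-1, TGANTCA, which read the same on both strands. They were found in 5 of the 9, and the matches are shown because SERPINB7, the member with the largest fall, is among them. Of all 27305 genes with such windows, 8.06% held the letters. Each match, in capitals, stands in 30 bases of the gene's own strand.

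SERPINB7, middle start, chr18:63775253-63775282: ctcctgaaatcTGATTCAcatacaaactga
SERPINB7, middle start, chr18:63775368-63775397: gtgctgtgctcTGAGTCAtagggaagccat
SERPINB7, last start, chr18:63777564-63777593: atgctaaaattTGATTCAttaaaaatatct
SERPINB7, last start, chr18:63777725-63777754: tagggagtgtcTGAGTCAgaggctttatat
SERPINB2, chr18:63887592-63887621: gagtaaaatgtTGAATCActcaaaggacac
SERPINB5, chr18:63476801-63476830: taacttcagccTGAATCAtttctttcaatt
SERPINB8, chr18:63969885-63969914: ggagtcaaacgTGAATCAacggtgaaaaaa
SERPINB8, chr18:63970042-63970071: tcgaacggttcTGAGTCAtctgccggaagc
PLAUR, minus strand, chr19:43670337-43670366: tcacaactccaTGAGTCAgggccgagccag

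SERPINB7 held 4 matches, at 2 of its 3 starts, and its 3 windows give it more letters to match than a gene with 1. None was found before SERPINB1, SERPINB6, SERPINB9 or PLAU. Among clade B genes with a window, 6 of 8 on chromosome 18 and 0 of 3 on chromosome 6 held the letters. The other letters searched were the CRE TGACGTCA (0 members), the TEAD site GGAATG (0), the STAT site TTCNNNGAA (SERPINB1, SERPINB7 and SERPINB8) and the TATA box TATAAA (SERPINB2, SERPINB7, SERPINB8 and SERPINB9). They stood before 2.03%, 14.3%, 8.09% and 13% of all genes. The SERPINB5, SERPINB8 and PLAUR matches and the TGAGTCA of the middle SERPINB7 start lie in stretches that GENCODE exons reach. The first SERPINB8 match lies before the annotated start of SERPINB8, in a window that an exon of the antisense gene AC009802.1 also reaches. A match of letters is a description, not a bound site.

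The last SERPINB7 start lies inside the gene, and the 246 bases before it that no annotated exon covers are shown whole, with the AP-1 letters in capitals.

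SERPINB7 last start, plus strand, chr18:63777531-63777776: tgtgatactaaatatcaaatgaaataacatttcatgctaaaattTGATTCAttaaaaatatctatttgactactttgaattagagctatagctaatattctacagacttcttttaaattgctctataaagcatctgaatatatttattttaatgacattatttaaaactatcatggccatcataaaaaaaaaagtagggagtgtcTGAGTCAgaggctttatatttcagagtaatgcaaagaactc

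Counts per gene do not tell which of the 3 starts the cells used. Base letters G and C made up 26% of the 250-base window of the last start, 36.8% of that of the middle start and 52% of that of the first.

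Each library held 62467286 to 70455517 counts on genes, and 21307 genes were tested. Of 9 epithelial markers, 8 reached 1 CPM. Summed, they reached 5163 and 5423 CPM with DMSO against 2351 and 2835 CPM with ACBI1 in H1975, and 940.3 and 980.3 CPM with DMSO against 1199 and 1658 CPM with ACBI1 in HCC44. Leukocyte markers summed to 2.05 to 3.67 CPM in every library, with CD3E and MS4A1 at 0. Fewer cells of a type and less RNA per cell cannot be told apart in bulk libraries. Of the 8 epithelial markers tested, 5 fell and 0 rose in H1975, where 31.3% of all tested genes were called and 16.7% were called lower. In HCC44 1 fell and 2 rose, where 34.9% were called, 17.4% lower and 17.5% higher. In HCC44 the higher sum was that of KRT7, whose mean went from 440.8 to 936.1 CPM. EPCAM also rose there, from 10.6 to 18.95 CPM, while KRT8 fell from 216.7 to 151.5 CPM. The part of these marker changes in the results below was not tested.

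Levels below are CPM, counts of a gene set against the TMM-scaled size of its library, with replicate 1 before replicate 2. A log2 fold change is given ± its standard error. Each edgeR adjusted p comes from the quasi-likelihood test and was adjusted by Benjamini-Hochberg over all tested genes.

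ACBI1 was accompanied by lower RNA of most members in both lines. Of the 9 members other than SERPINB7, 6 fell and 0 rose in H1975, where 31.3% of all tested genes were called and 16.7% were called lower. In HCC44, 6 fell and 1 rose, against 34.9% of all genes called and 17.4% called lower. The median log2 fold change of the 9 was -1.03 in each line, beside all-gene medians of -0.014 in H1975 and 0.006 in HCC44. SERPINB1, SERPINB2, SERPINB5, PLAUR and PLAT fell in both lines, SERPINB8 fell in H1975 and SERPINB9 in HCC44. Each line's ACBI1 libraries were set against its own DMSO libraries, with the filter, scaling and spread shared over all 8 libraries.

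**Figure D1:**
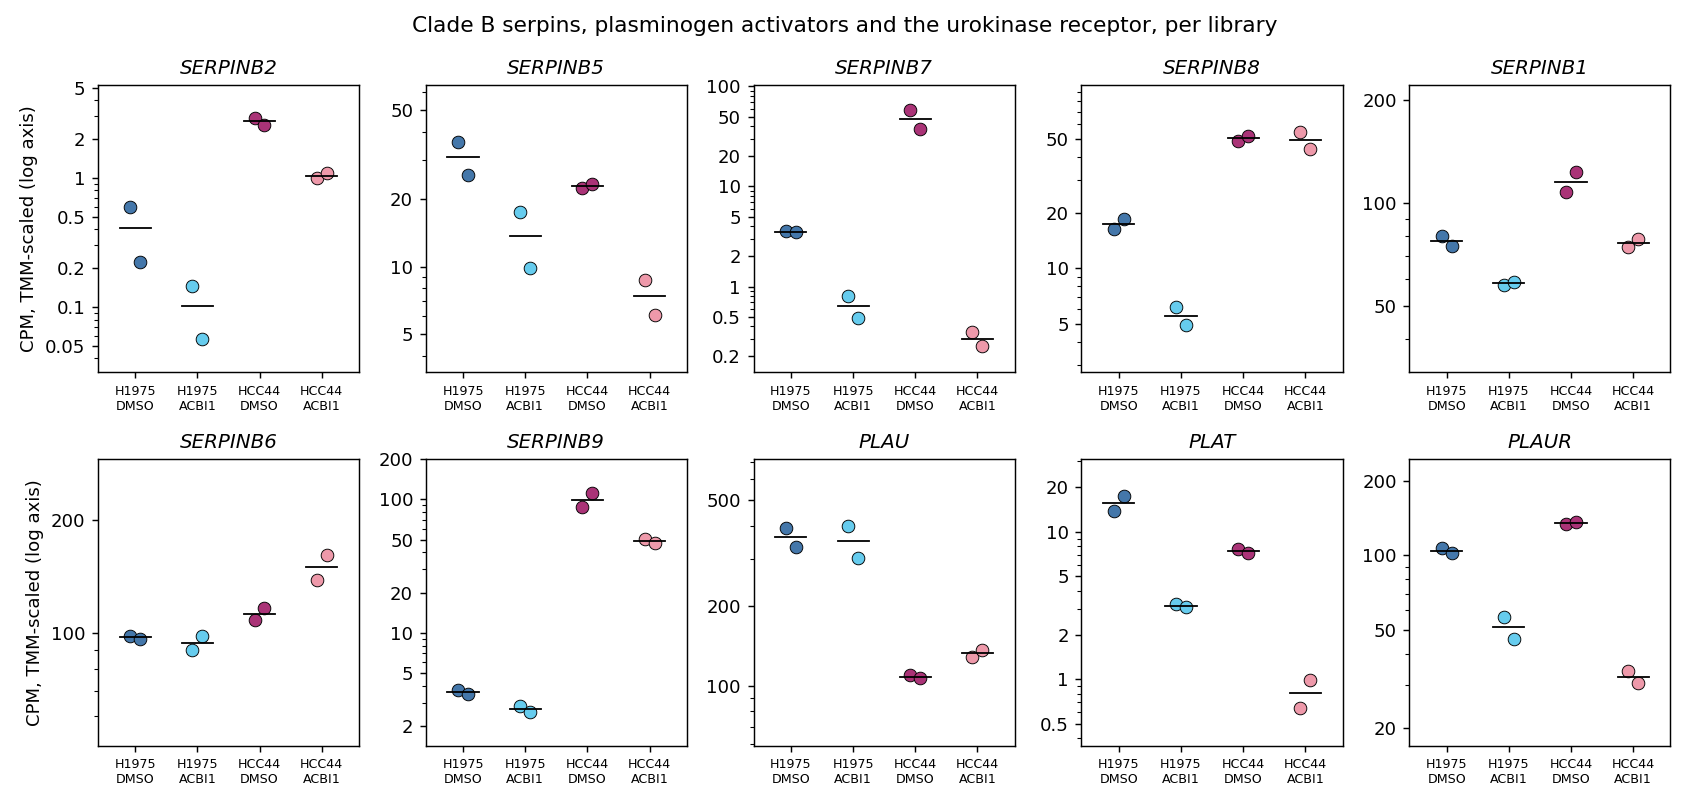
Level of each member in each of the 8 libraries, in CPM on log axes; points are libraries and lines are group means. SERPINB7 was at 57.5 and 38 CPM in HCC44 DMSO and at 0.352 and 0.252 CPM in HCC44 ACBI1.

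SERPINB7, also called megsin, is an inhibitor first described in the mesangial cells of the kidney and is made in the upper epidermis. Its level in HCC44 DMSO was 57.5 and 38 CPM, from 3618 and 2422 counts, and in HCC44 ACBI1 it was 0.352 and 0.252 CPM, from 22 and 16 counts. The ratio of DMSO to ACBI1 was 158, with a 95% counting interval of 115 to 224. The HCC44 DMSO libraries were the highest of the 8, and the SD between them was 13.8 CPM around a mean of 47.7 CPM.

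SERPINB7 was also lower with ACBI1 in H1975, so its fall was not seen in HCC44 alone. It stood at 3.59 and 3.51 CPM with DMSO and at 0.811 and 0.481 CPM with ACBI1, from 231, 237, 61 and 34 counts. The ratio of DMSO to ACBI1 was 5.45, with a counting interval of 4.36 to 6.87. Groups did not overlap in either line, as for 67.3% of all tested genes in H1975 and 66.8% in HCC44. With DMSO, the mean was 13.5-fold higher in HCC44 than in H1975, whereas with ACBI1 both HCC44 libraries lay below both H1975 libraries. The intervals cover counting error only.

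**Figure D2:**
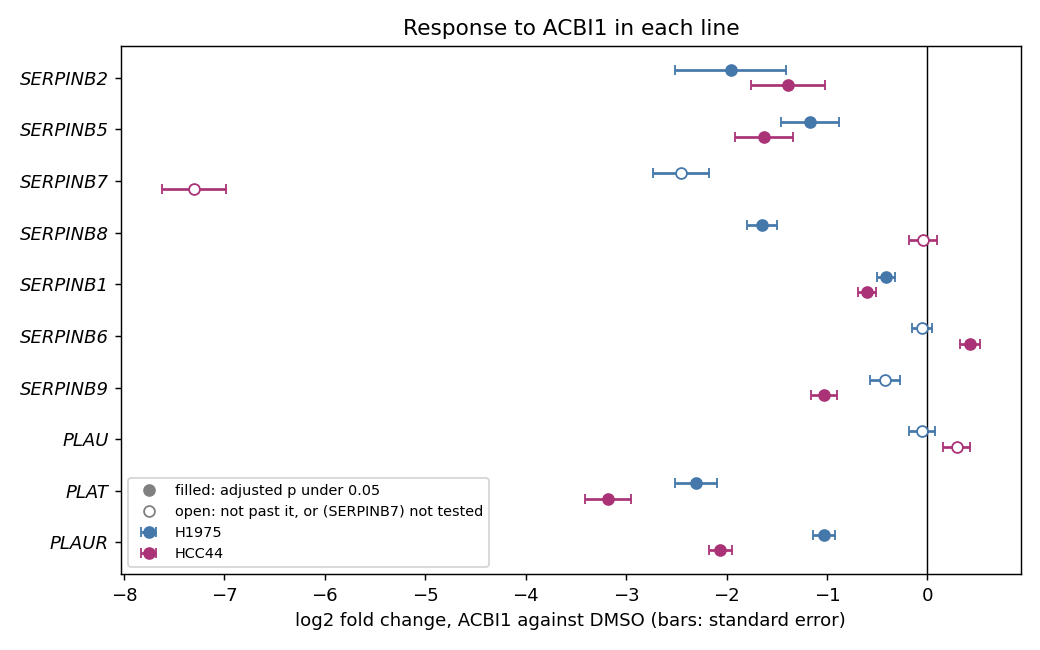
Log2 fold change of each member, ACBI1 against DMSO, in H1975 and in HCC44, with standard errors. SERPINB7 has the lowest value in each line, -2.45 in H1975 and -7.3 in HCC44, and was not tested.

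SERPINB5 (maspin), a serpin without inhibitory activity that is studied as a tumour suppressor, fell in both lines. It was at 36 and 25.7 CPM in H1975 with DMSO and at 17.6 and 9.86 CPM with ACBI1. In HCC44 it was at 22.6 and 23.4 CPM with DMSO and at 8.74 and 6.09 CPM with ACBI1. Replicates spread widely in H1975, but the groups did not overlap in either line. The log2 fold change was -1.17 ± 0.29 in H1975 (edgeR adjusted p = 0.0156) and -1.63 ± 0.29 in HCC44 (edgeR adjusted p = 0.00317). The lines' changes differed by -0.47 (edgeR adjusted p = 0.483). Without H1975 DMSO replicate 1, the change in H1975 was -0.91 and did not pass (edgeR adjusted p = 0.0908).

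SERPINB2, the plasminogen activator inhibitor of the clade, was scarce and fell in both lines. Its 2.91 and 2.56 CPM in HCC44 DMSO, from 183 and 163 counts, were above the 0.992 and 1.09 CPM in HCC44 ACBI1, from 62 and 69 counts. In H1975 it had 38 and 15 counts with DMSO and 11 and 4 with ACBI1. The H1975 groups were thus separated by few counts, 15 against 11. SERPINB10, which shares an exon with SERPINB2, had at most 1 count in a library. The log2 fold change was -1.39 ± 0.37 in HCC44 (edgeR adjusted p = 0.0141) and -1.96 ± 0.55 in H1975 (edgeR adjusted p = 0.0201). The H1975 call was lost without H1975 DMSO replicate 1 (log2 fold change -1.11) or H1975 ACBI1 replicate 2 (-1.43), and with H1975 fitted alone. The HCC44 call was lost without HCC44 DMSO replicate 1 (-1.30) or either HCC44 ACBI1 library (-1.33 and -1.46).

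SERPINB8, an inhibitor of furin, fell in H1975 but was not called in HCC44. It was at 16.3 and 18.4 CPM in H1975 with DMSO and at 6.15 and 4.94 CPM with ACBI1. In HCC44 it was at 49 and 52.2 CPM with DMSO and at 54.5 and 44.1 CPM with ACBI1, where the groups overlapped. The log2 fold change was -1.65 ± 0.15 in H1975 (edgeR adjusted p = 4.21e-05) and -0.04 ± 0.14 in HCC44 (edgeR adjusted p = 0.878). The difference between the lines was 1.61 ± 0.20 (edgeR adjusted p = 0.000681). Of the 9 members, 3 differed between the lines (SERPINB8, SERPINB6 and PLAUR), 2 with a positive and 1 with a negative difference. Among all tested genes 18.6% differed, 10.2% with a positive and 8.4% with a negative difference.

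SERPINB8 shares an exon with HMSD, a serpin-domain gene next to it on the same strand. HMSD rose with ACBI1, from a mean of 0.145 to 0.958 CPM in H1975 (log2 fold change 2.72 ± 0.44, edgeR adjusted p = 0.0011). In HCC44 its mean went from 0.284 to 3.5 CPM (3.61 ± 0.39, edgeR adjusted p = 6.01e-05). HMSD moved up while SERPINB8 fell in H1975. How reads in the shared exon were divided is not given in the sources used here. An antisense gene, AC009802.1, also overlaps SERPINB8, and the strand setting of the counting is not given either.

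SERPINB1, an inhibitor of neutrophil elastase and related proteases, fell modestly in both lines. Its level was 80.1 and 74.6 CPM in H1975 with DMSO and 57.6 and 58.8 CPM with ACBI1. In HCC44 it was 107.6 and 123.1 CPM with DMSO and 74.1 and 78.7 CPM with ACBI1. Both lines' groups were apart. The log2 fold change was -0.41 ± 0.09 in H1975 (edgeR adjusted p = 0.00791) and -0.60 ± 0.09 in HCC44 (edgeR adjusted p = 0.000729). The H1975 call was lost when libraries were scaled by their totals (-0.21), and without H1975 DMSO replicate 1 (-0.36) or either H1975 ACBI1 library (-0.36 and -0.40).

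SERPINB9, which inhibits granzyme B, was high in HCC44 and fell there. It was at 87 and 112.1 CPM in HCC44 DMSO and at 50.5 and 46.8 CPM in HCC44 ACBI1 (log2 fold change -1.03 ± 0.13, edgeR adjusted p = 0.000151). In H1975 it was at 3.73 and 3.48 CPM with DMSO and at 2.82 and 2.56 CPM with ACBI1 (-0.42 ± 0.15, edgeR adjusted p = 0.0548). The H1975 groups did not overlap, but the change did not pass the threshold, and it did pass without HCC44 DMSO replicate 1 or 2 (edgeR adjusted p = 0.0355 and 0.038) and without a filter (0.0213). The difference between the lines was -0.61 ± 0.20 (edgeR adjusted p = 0.0522), and it passed with DESeq2 (adjusted p = 0.0272), RLE size factors, library totals or no filter, and without HCC44 DMSO replicate 1 (-0.79).

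SERPINB6, a widely expressed inhibitor of cathepsin G and other proteases, was the member that rose. In HCC44 it went from 108.6 and 116.5 CPM with DMSO to 138.6 and 161.6 CPM with ACBI1 (log2 fold change 0.42 ± 0.10, edgeR adjusted p = 0.00693). In H1975 it was at 98.3 and 96.4 CPM with DMSO and at 90.2 and 98 CPM with ACBI1 (-0.05 ± 0.10, edgeR adjusted p = 0.744). The groups overlapped in H1975 and were apart in HCC44. The difference between the lines was 0.46 ± 0.14 (edgeR adjusted p = 0.0387), a call that DESeq2 (adjusted p = 0.0609), RLE size factors and library totals did not give. It was also lost on leaving out any library other than HCC44 ACBI1 replicate 1, with values of 0.35 to 0.52. The HCC44 rise was lost without HCC44 DMSO replicate 1 (0.36) or HCC44 ACBI1 replicate 2 (0.30).

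**Figure D3:**
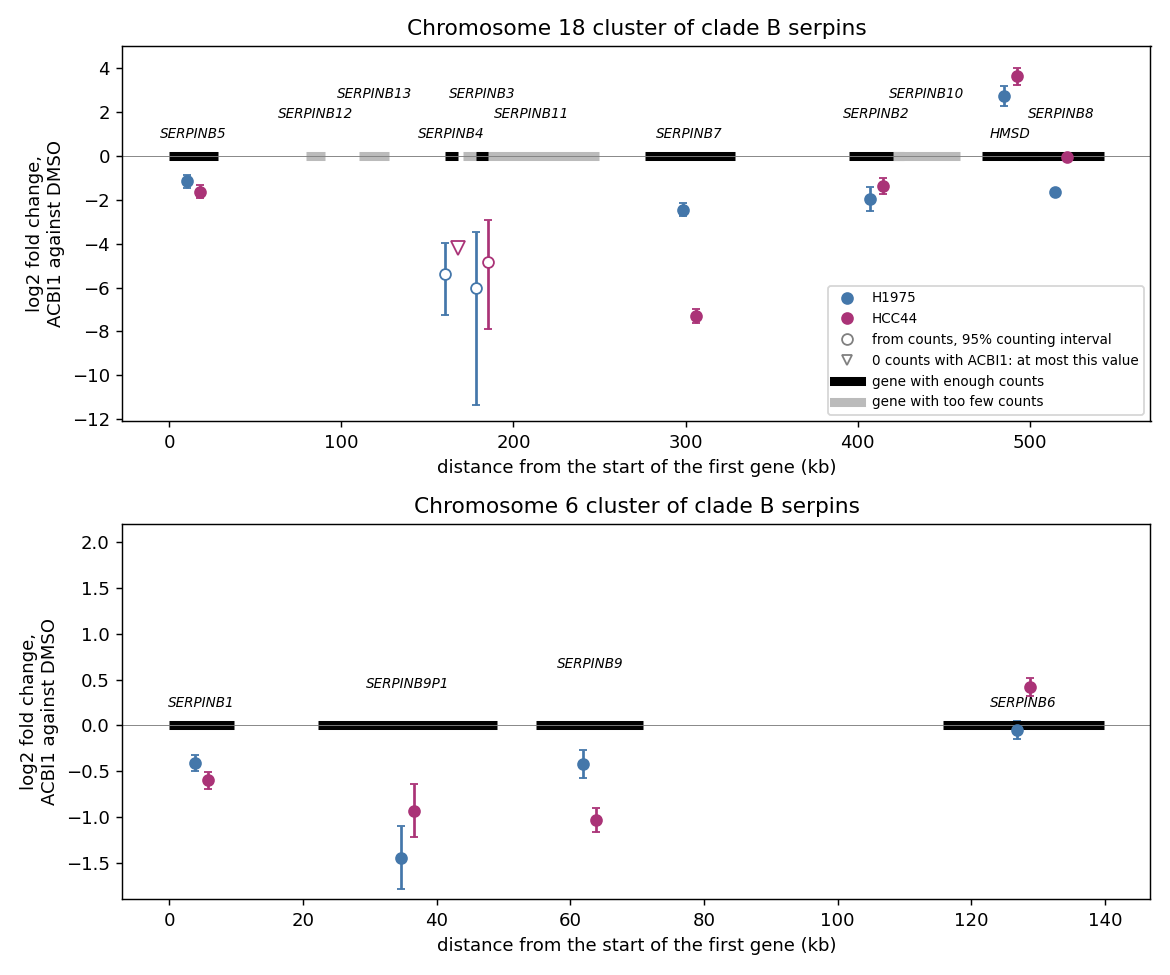
Log2 fold change of ACBI1 against DMSO along the chromosome 18 and chromosome 6 clusters, by distance in kb from the first gene, with standard errors; open points come from counts, with 95% counting intervals, and the triangle is a bound. SERPINB7 in HCC44 has a fitted value of -7.3, while HMSD lies above 0 in both lines.

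Of the 6 other clade B serpins, all on chromosome 18, SERPINB3 and SERPINB4 passed the filter, and only through their DMSO libraries. Genes kept that way could hardly show a rise, so their lower counts with ACBI1 in both lines are described without a test. These paralogs, the squamous cell carcinoma antigens, are nearly identical, so the division of reads between them is uncertain. SERPINB4 had 63 and 87 counts in H1975 DMSO and 2 and 2 in H1975 ACBI1 (ratio 41.5, counting interval 15.9 to 154). In HCC44 it had 25 and 30 counts with DMSO and 0 in both ACBI1 libraries, or at least 18.2-fold lower if the group is set at 3 counts in all. SERPINB3 had 24 and 34 counts in H1975 DMSO and 0 and 1 in H1975 ACBI1 (ratio 64.1, counting interval 11.1 to 2576). In HCC44 it had 34 and 23 counts with DMSO and 2 and 0 with ACBI1 (ratio 28.4, counting interval 7.5 to 239.8). Neither gene held the AP-1 letters. SERPINB10 and SERPINB12 had at most 1 count in a library, and SERPINB11 and SERPINB13 had 0.

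In the chromosome 6 cluster, the long non-coding gene SERPINB9P1, next to SERPINB9, fell in H1975 (log2 fold change -1.44 ± 0.34, edgeR adjusted p = 0.00922) and in HCC44 (-0.93 ± 0.29, edgeR adjusted p = 0.0309). DESeq2 gave SERPINB9P1 an adjusted p of 0.0523 in HCC44. The HCC44 call was also lost without either HCC44 DMSO library (-1.03 and -0.82) or HCC44 ACBI1 replicate 1 (-0.62), and the H1975 call without H1975 ACBI1 replicate 2 (-1.22).

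Urokinase RNA did not change past the threshold, while its receptor fell in both lines. PLAU was at 394 and 334.7 CPM in H1975 with DMSO and at 399.4 and 302.5 CPM with ACBI1, and the groups overlapped. In HCC44 it was at 109.8 and 106.8 CPM with DMSO and at 128.4 and 136.7 CPM with ACBI1, and the groups were apart. The log2 fold change was -0.05 ± 0.13 in H1975 (edgeR adjusted p = 0.787) and 0.29 ± 0.13 in HCC44 (edgeR adjusted p = 0.103). The HCC44 value passed with library totals (0.38, edgeR adjusted p = 0.0412), without a filter (0.0187) and with HCC44 fitted alone (0.0307). PLAU overlaps C10orf55 on the other strand, which had 49 to 253 counts.

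PLAUR, the receptor that holds urokinase on the cell surface, was at 107.1 and 101.9 CPM in H1975 with DMSO and at 56.2 and 46.1 CPM with ACBI1. In HCC44 it went from 134 and 136.4 CPM to 34 and 30.7 CPM. The log2 fold change was -1.03 ± 0.11 in H1975 (edgeR adjusted p = 9.19e-05) and -2.06 ± 0.11 in HCC44 (edgeR adjusted p = 8.75e-07). The fall was deeper in HCC44, by -1.03 ± 0.15 (edgeR adjusted p = 0.00144). HCC44 had the higher PLAUR libraries with DMSO and the lower ones with ACBI1.

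Per base of exon, the ratio of receptor to urokinase RNA was 0.18 and 0.202 in H1975 DMSO and 0.0932 and 0.101 in H1975 ACBI1. In HCC44 it was 0.808 and 0.845 with DMSO and 0.175 and 0.148 with ACBI1. The ratio with ACBI1 in HCC44 was thus below that of H1975 with DMSO.

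PLAT, the tissue-type activator, fell in both lines. It was at 13.8 and 17.4 CPM in H1975 with DMSO and at 3.25 and 3.08 CPM with ACBI1 (log2 fold change -2.30 ± 0.21, edgeR adjusted p = 4.27e-05). In HCC44 it was at 7.66 and 7.19 CPM with DMSO and at 0.64 and 0.991 CPM with ACBI1 (-3.18 ± 0.23, edgeR adjusted p = 6.77e-06). All ACBI1 libraries lay below all DMSO libraries of both lines. The difference between the lines was -0.89 ± 0.31 and missed the threshold (edgeR adjusted p = 0.0682). It passed with DESeq2 (adjusted p = 0.0266), library totals or no filter, and without HCC44 ACBI1 replicate 2 (-1.23).

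Of 21 partners of the plasminogen system, a list of inhibitors, plasminogen binders and neighbouring coagulation genes, 18 were tested. In H1975 2 rose and 6 fell, and in HCC44 1 rose and 7 fell, with medians of -0.34 and -0.30. The 6 in H1975 include SERPINE2, which passed the filter through HCC44 alone and had at most 4 counts in an H1975 library. Over all tested genes, 31.3% were called in H1975, 16.7% lower, and 34.9% in HCC44, 17.4% lower, with medians of -0.014 and 0.006. The change differed between the lines for 5 of the 18, where 18.6% of all tested genes differed. ANXA2, which with S100A10 forms a heterotetramer that docks plasminogen and PLAT, fell by 1.2 on the log2 scale in H1975 (edgeR adjusted p = 8.48e-05) and by 0.45 in HCC44 (edgeR adjusted p = 0.0141), and the lines differed by 0.74 ± 0.17 (edgeR adjusted p = 0.0136). S100A10 fell by 0.96 in H1975 and by 0.86 in HCC44 (edgeR adjusted p = 0.00721 and 0.00983). The receptor PLGRKT rose by 0.51 ± 0.12 in H1975 (edgeR adjusted p = 0.0102) and was at -0.33 in HCC44 (edgeR adjusted p = 0.0615), a difference of -0.84 ± 0.18 (edgeR adjusted p = 0.00843). ST14 (matriptase), a membrane protease that can activate pro-urokinase, fell in HCC44 (-1.61 ± 0.22, edgeR adjusted p = 0.000633), was at -0.51 in H1975 (edgeR adjusted p = 0.1) and differed by -1.10 ± 0.30 (edgeR adjusted p = 0.0356). SERPINE2 (protease nexin 1), which inhibits thrombin and urokinase, fell in HCC44 from 139.1 to 60.4 CPM (-1.2 ± 0.11, edgeR adjusted p = 3.86e-05) and had at most 4 counts in an H1975 library. Leaving out a library ended some of these calls. The HCC44 falls of ANXA2 (-0.41 and -0.30) and S100A10 (-0.76 and -0.65) were lost without HCC44 DMSO replicate 2 or HCC44 ACBI1 replicate 1. The H1975 rise of PLGRKT was lost without H1975 DMSO replicate 1 (0.46) or H1975 ACBI1 replicate 2 (0.47). The ANXA2 difference was lost without H1975 ACBI1 replicate 2 (0.61) or HCC44 DMSO replicate 1 (0.70). The ST14 difference was lost without H1975 DMSO replicate 2 (-0.99), HCC44 DMSO replicate 1 (-0.88) or HCC44 ACBI1 replicate 1 or 2 (-1.22 and -0.99). ST14 in H1975 passed without a filter (edgeR adjusted p = 0.000268) and without H1975 ACBI1 replicate 1 (-0.79). HPN (hepsin), a membrane protease named here after its values were seen, was at group means of at most 1.99 CPM. Its change was -2.11 ± 0.41 in HCC44 (edgeR adjusted p = 0.00251) and 0.07 ± 0.26 in H1975 (edgeR adjusted p = 0.86), a difference of -2.19 ± 0.49 (edgeR adjusted p = 0.0116) that was lost without HCC44 DMSO replicate 2 (-1.93). PLG itself had at most 5 counts in a library.

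**Figure D4:**
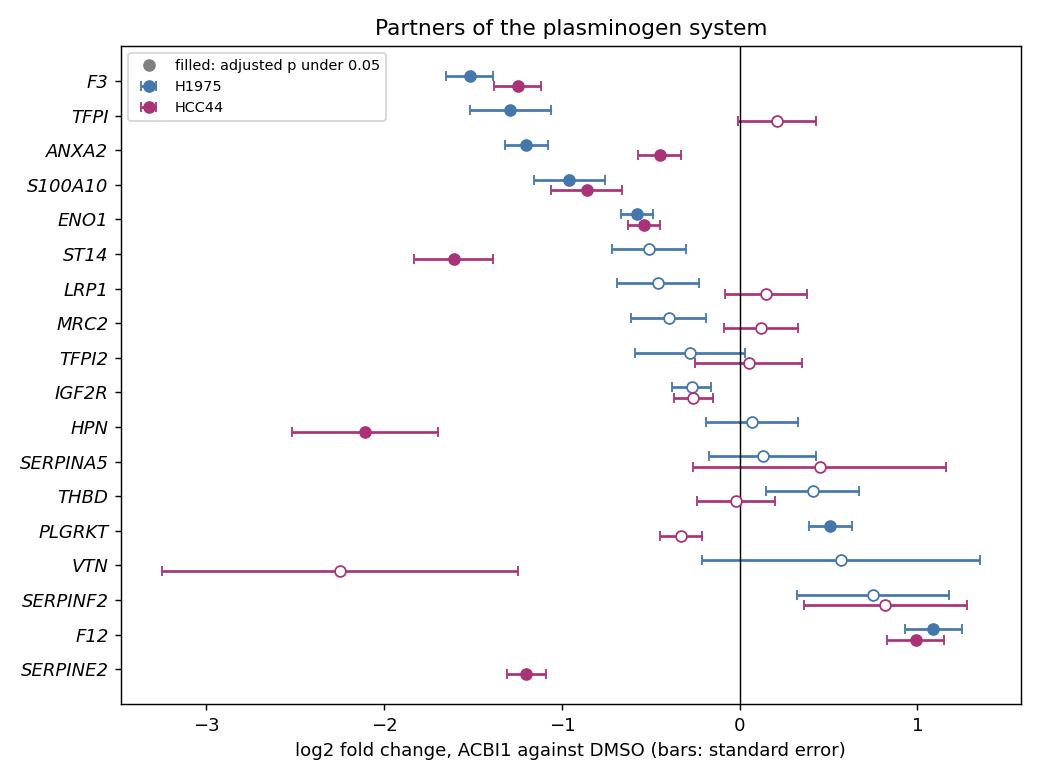
Log2 fold change of the tested partners of the plasminogen system, ACBI1 against DMSO, in both lines, with standard errors; filled points have an adjusted p under 0.05 and SERPINE2 in H1975, near 0 counts, is left out. F12 lies above 0 and F3 lies below 0 in both lines.

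Of 10 proteases that clade B serpins are known to hold in check, 7 were tested. In H1975 2 rose and 3 fell, and in HCC44 2 rose and 4 fell, where 31.3% and 34.9% of all tested genes were called. CASP1, a caspase that matures interleukins, fell in HCC44 from 18.3 to 0.704 CPM (log2 fold change -4.70 ± 0.32, edgeR adjusted p = 3.8e-06). In H1975 CASP1 had 61 and 58 counts with DMSO and 3 and 0 with ACBI1 (ratio 43.9, counting interval 14.7 to 216). FURIN, the target of SERPINB8, fell in H1975 (-1.06 ± 0.10, edgeR adjusted p = 4.31e-05) and in HCC44 (-0.40 ± 0.10, edgeR adjusted p = 0.00843), and the lines differed by 0.67 ± 0.14 (edgeR adjusted p = 0.00741). CTSS, a lysosomal cathepsin, fell in HCC44 (-1.86 ± 0.47, edgeR adjusted p = 0.0176), a call lost without HCC44 DMSO replicate 2 (-1.79) or HCC44 ACBI1 replicate 1 (-1.41). The HCC44 fall of FURIN was lost without HCC44 DMSO replicate 1 (-0.31). CTSL, a related cathepsin, fell by 0.31 in H1975 (edgeR adjusted p = 0.0467) and by 0.4 in HCC44 (edgeR adjusted p = 0.014). The CTSL call in H1975 was lost with DESeq2, RLE size factors, library totals or H1975 fitted alone and on leaving out 5 libraries (-0.33 to -0.17), and that in HCC44 without HCC44 DMSO replicate 2 (-0.32) or HCC44 ACBI1 replicate 2 (-0.33). ELANE and PRTN3, the 2 counted as risen in each line, stayed under 1 CPM in group means. They passed the filter only through ACBI1 libraries, so they could hardly have been called lower. GZMB, the target of SERPINB9, had at most 3 counts in a library and CTSG had 0.

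With DMSO alone, most members differed between the lines, as did most tested genes. These values share the DMSO libraries with the comparisons above. Of the 9 members, 5 were higher and 2 lower in HCC44, where 67.9% of all tested genes were called, 31.6% higher and 36.4% lower. The DMSO groups of all 9 did not overlap, as for 84.9% of all tested genes. SERPINB9 differed most of the 9, 27.6-fold higher in HCC44 (log2 4.79 ± 0.15, edgeR adjusted p = 9.75e-10). SERPINB2 (2.75 ± 0.41, edgeR adjusted p = 0.000118), SERPINB8 (1.54 ± 0.14, edgeR adjusted p = 2.91e-06) and SERPINB1 (0.58 ± 0.09, edgeR adjusted p = 0.000242) were also higher. PLAUR was higher by 0.37 ± 0.11 (edgeR adjusted p = 0.00905), a call lost with library totals (0.26) and without HCC44 DMSO replicate 2 (0.36). PLAU (-1.75 ± 0.13, edgeR adjusted p = 5.85e-07) and PLAT (-1.07 ± 0.20, edgeR adjusted p = 0.000604) were lower. SERPINB5 (-0.42, edgeR adjusted p = 0.211) and SERPINB6 (0.21, edgeR adjusted p = 0.0769) did not pass. SERPINB5 passed without a filter (adjusted p = 0.0104) and SERPINB6 without either HCC44 ACBI1 library (0.0455 and 0.0459).

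Per kb of exon, PLAU was the highest member in H1975 DMSO at 123.5 ± 14.2 CPM per kb (SD, n = 2), followed by SERPINB1 at 25 ± 1.3 and PLAUR at 23.5 ± 0.81, which lay within their spread of each other. SERPINB5 and SERPINB6 came next at 7.84 ± 1.9 and 7.38 ± 0.1 and did not differ beyond their spread. The length used joins all annotated exons of a gene, 13201 bases for SERPINB6 and 3939 for SERPINB5. Before division by length, SERPINB6 was at 97.4 CPM and SERPINB5 at 30.9 CPM, so ranks per kb depend on the annotation. SERPINB8 (2.96 ± 0.25), PLAT (2.35 ± 0.39), SERPINB7 (1.35 ± 0.022), SERPINB9 (0.875 ± 0.043) and SERPINB2 (0.148 ± 0.095) followed. In HCC44 DMSO, SERPINB1 at 37.3 ± 3.6 and PLAU at 36.7 ± 0.71 were not apart, and PLAUR was at 30.3 ± 0.37. SERPINB9 at 24.2 ± 4.3 and SERPINB7 at 18.1 ± 5.2 overlapped in spread.

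With ACBI1 in HCC44, SERPINB7 was the last of the 10 at 0.115 ± 0.027 CPM per kb, within the spread of PLAT at 0.123 ± 0.038. PLAU led that group at 44.9 ± 2 CPM per kb, above SERPINB1 at 24.7 ± 1, SERPINB9 at 11.8 ± 0.63 and SERPINB6 at 11.4 ± 1.2. The last pair did not differ beyond its spread, with SERPINB6 divided by 13201 bases and SERPINB9 by 4118. In H1975 ACBI1, PLAU was again the highest at 119 ± 23.2 CPM per kb and SERPINB2 the lowest at 0.0369 ± 0.023.

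The genes whose log2 CPM followed SERPINB7 most closely over the 8 libraries were ULBP2 (Pearson r 0.992), CIR1, DUSP5, RMDN3 (0.99 each) and KIAA2013 (0.987), out of 12670 genes compared. The 8 libraries form 4 groups, so such values mostly describe the order of the group means. DUSP5, a nuclear phosphatase of ERK, was at 137.7 CPM in H1975 DMSO, 83.6 in H1975 ACBI1, 226 in HCC44 DMSO and 72.7 in HCC44 ACBI1. Among the 8 other members compared, which leave out SERPINB2 for its low level, PLAUR was the most like SERPINB7 (r 0.934, rank 139), then SERPINB1 (0.819), SERPINB5 (0.729) and PLAT (0.688). The r of PLAU (-0.341) and that of SERPINB6 (-0.291) were negative but weak.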

How the data were processed

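Total RNA of 8 libraries, 2 per group, was sequenced. The authors deposited raw counts of reads per gene, made with TopHat2 2.1.1 and HTSeq 0.11.0 on hg38 per the submitters' processing notes. The annotation and strand setting are not given in the sources used here. The 5 summary rows, 14.3 to 15.8% of each table, were left out. Replicates differed by more than sampling noise, so none was a copy.

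Counts were fitted with edgeR 4.0.16 in R 4.3.3: filterByExpr, TMM factors, one mean per group over all 8 libraries (4 residual degrees of freedom, since 2 libraries a group leave few), robust quasi-likelihood F-test, two-sided, Benjamini-Hochberg adjusted p under 0.05 over 21307 genes. The comparisons were ACBI1 against DMSO in each line, the difference (HCC44 minus H1975), and HCC44 DMSO against H1975 DMSO. No test of SERPINB7 is reported. The design allowed it between the DMSO groups, but its HCC44 DMSO level is part of why it was chosen. The procedure was tested on simulated data.

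The members and lists were chosen with earlier results of these data known. All members were named, and of each list up to 5 called genes per comparison with the largest log2 fold change and at least 5 CPM in a group, the 6 other clade B serpins with 10 counts in a library, the neighbours in the clusters and the 5 genes most like SERPINB7. SERPINB10 to SERPINB13, PLG, HPN, ELANE, PRTN3, GZMB and CTSG were named after their values were seen. Marker lists were epithelial, squamous, leukocyte, endothelial and fibroblast genes. A gene of the partner list is not reported here and was left out of its counts. Promoter sequences are RefSeq's. Alternatives were DESeq2 1.42.0, RLE size factors, library totals, no filter, each line alone, a replicate block and each library left out. Counting intervals are exact, at 95%. Figures used matplotlib 3.10.9.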

Additional observations from a re-analysis of the deposited data

Results flagged for a closer look

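A test of the difference between the lines' changes with ACBI1, HCC44 minus H1975 on the log2 scale, passed for 3 members. These were SERPINB8 (1.61), PLAUR (-1.03) and SERPINB6 (0.46). SERPINB8 fell in H1975 alone by the test and PLAUR fell in both lines, deeper in HCC44. SERPINB6 rose in HCC44 and had a log2 fold change of -0.05 in H1975.

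Among the partners of the plasminogen system the same test passed for TFPI (1.5), ANXA2 (0.74), PLGRKT (-0.84), ST14 (-1.1) and HPN (-2.19). Among the proteases it passed for FURIN (0.67). Over all tested genes, 18.6% passed.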

How the results depend on the processing

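Members called numbered 6 in H1975, 7 in HCC44, 3 in the difference and 7 between the DMSO groups. Leaving out each library gave 3 to 7, 5 to 7, 2 to 3 and 6 to 8, and the 3 in H1975 came without H1975 DMSO replicate 1. The difference count was 5 without a filter. With each library left out, the SERPINB7 log2 fold change lay between -2.84 and -2.1 in H1975, between -7.56 and -6.97 in HCC44, from -5.2 to -4.46 in the difference and from 3.42 to 4.02 between the DMSO groups.

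Uncalled values changed sign with library totals, to 0.15 for SERPINB6 and 0.15 for PLAU in H1975 and to 0.06 for SERPINB8 in HCC44. With a library left out, the lone sample of a group being assumed to vary like the others, they ranged from -0.09 to 0.04, -0.23 to 0.16 and -0.2 to 0.11. TFPI in HCC44 ranged from -0.17 to 0.51 and the SERPINB2 difference from -0.29 to 1.36. Library totals moved the median of all genes to 0.18 in H1975, 0.093 in HCC44 and -0.199 between the DMSO groups, and the share of called genes that were higher to 72.3% in H1975 (46.6% with TMM) and to 60.5% in HCC44 (50% with TMM). Of single-gene values, 968 kept their direction and side of the threshold, 62 lost and 28 gained a call, and 11 changed sign. The cause was not tested.

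With the replicate number as a block within each line, 6 members differed between the lines (PLAT, PLAU and SERPINB9 added), and calls were added for SERPINB9 in H1975 (adjusted p = 0.0389) and PLAU in HCC44 (0.00726). ST14 in H1975 (0.00096) and PLGRKT in HCC44 (0.0256) also passed. Over all genes, 6358 in place of 3967 differed. Same-numbered libraries' deviations correlated at 0.374 in H1975 and 0.109 in HCC44, but with 2 pairs a line the numbers were not taken as a pairing. Leaving out a library gave 3690 to 7161 genes called in H1975 (6663 with all), 4945 to 7342 in HCC44 (7438) and 2341 to 4134 in the difference. Depth limits SERPINB2, SERPINB3 and SERPINB4, which had few counts.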

Other observations

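Several coagulation genes of the partner list moved in these lines. F3 (tissue factor), which starts coagulation, fell from a mean of 129.4 to 45.3 CPM in H1975 (log2 fold change -1.52 ± 0.13, edgeR adjusted p = 2.76e-05), and in HCC44 from 74 to 31.1 CPM (-1.25 ± 0.13, edgeR adjusted p = 4.78e-05). TFPI, the inhibitor of the tissue factor pathway, fell from 65.6 to 26.9 CPM in H1975 (-1.29 ± 0.23, edgeR adjusted p = 0.00392) and was at 120.7 and 139.5 CPM in HCC44 (0.21, edgeR adjusted p = 0.512), a difference of 1.5 ± 0.31 (edgeR adjusted p = 0.0146). The TFPI difference was lost on leaving out each of the 4 H1975 libraries in turn (1.37 to 1.57), the H1975 fall without H1975 ACBI1 replicate 2 (-1.25), and TFPI passed as higher in HCC44 without HCC44 ACBI1 replicate 1 (0.51, adjusted p = 0.0466). F12, the contact factor that can activate plasminogen, rose from 9.2 to 19.6 CPM in H1975 (1.09 ± 0.16, edgeR adjusted p = 0.00071), and in HCC44 from 9.94 to 19.7 CPM (0.99 ± 0.16, edgeR adjusted p = 0.000899).

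With DMSO, other genes of the list differed between the lines. SERPINE2 was at 139.1 CPM in HCC44 and 0.0451 CPM in H1975. SERPINA5 was at 5.97 CPM in H1975 and 0.0863 CPM in HCC44, THBD at 3.1 CPM in H1975 and 103.2 CPM in HCC44, and TFPI2 at 19.3 and 112 CPM. ST14 was lower in HCC44, at 26.4 against 79.5 CPM. SERPINE2 and SERPINA5 passed the filter only through the line where each was high, so no test of them between the lines is given. The adjusted p-values from edgeR were 5.49e-07 for THBD, 0.000266 for TFPI2 and 0.00014 for ST14.

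Of the other marker lists, squamous genes summed to 144.4 to 228.1 CPM in H1975 and 22.7 to 30.5 CPM in HCC44. Endothelial genes summed to 0.439 to 0.622 CPM in H1975. In HCC44 they summed to 4.01 and 3.32 CPM with DMSO and to 1.04 and 1.12 CPM with ACBI1, where CDH5 fell (-3.50 ± 0.37, edgeR adjusted p = 6.18e-05). PECAM1 had a mean of 0.6 CPM in HCC44 DMSO and 0.0552 CPM in HCC44 ACBI1. It passed the filter through HCC44 DMSO alone, so no test of it is given. Fibroblast genes summed to 91.9 and 73.4 CPM in HCC44 DMSO and to 203.3 and 406.5 CPM in HCC44 ACBI1. That higher sum was that of COL1A1, whose mean went from 80.3 to 302 CPM, while COL1A2 went from 0.0948 to 0 CPM. In H1975 the list summed to 71.9 and 48.8 CPM with DMSO and to 30.4 and 25.4 CPM with ACBI1. The part of the endothelial and fibroblast lists in the HCC44 results was not tested.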
